A study of Mus musculus with 12 samples.

Results

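Circadian clock genes were followed on every array of a mouse liver expression series. The members were the 10 genes Per1, Per2, Arntl, Clock, Cry1, Cry2, Dbp, Tef, Bhlhe40 and Nfil3. All probe sets (groups of array probes read as 1 value) annotated to 1 of these symbols were taken, which gave 13 of the 12488 probe sets. Intensities under a floor of 33.0, the 25th percentile of all values, were set to that floor, and a probe set was tested if at least 2 arrays lay above it. This left 10 member probe sets of 9 genes among 9641 tested. Per2 lay under the floor on all 12 arrays, between 11.3 and 27.0, and was not tested. Cry1 had 2 further probe sets under the floor on all arrays, at most 8.59, so it was read from 94420_f_at alone.

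The series held 12 Affymetrix arrays of total liver RNA in 6 groups of 2, taken 4 h after an intraperitoneal injection. The groups were interferon-gamma-/- mice (Ifng-null below) given interferon-gamma or phosphate-buffered saline (PBS), albumin-cre(+) Socs3(-/fl) mice (Socs3-deleted below) given interleukin-6 (IL-6) or PBS, and albumin-cre(-) Socs3(w/fl) mice (controls below) given IL-6 or PBS. The albumin promoter drives Cre in hepatocytes, so other liver cells of the Socs3-deleted mice kept 1 floxed allele beside a null allele. The controls carried 1 floxed allele beside a wild-type allele and no Cre. Deletion in hepatocytes therefore cannot be told apart from the null allele in other cells or from Cre itself. Age, sex, strain and time of day are not in the labels used here. The Ifng-null mice had a PBS group but no group of their own with intact Ifng. Any difference of strain therefore cannot be told apart from genotype. The labels number the arrays 1 and 2 within each group and do not say that they come from separate mice, so a p-value here reflects array-to-array spread, which may be technical.

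Median intensity per array ranged from 80.6 to 85.7, and the log2 values of the 2 arrays of a group correlated at 0.977 to 0.987 across probe sets. Of 8 hepatocyte markers 7 were on the array, all above the floor on all arrays, with sums of 39779 to 52391. Socs3 (92232_at) ran from 74.4 to 106 on the 4 Socs3-deleted arrays and from 117 to 167 on the 4 control arrays, with no overlap. Ifng was under the floor on all 12 arrays and checked nothing. Array 2 of the Socs3-deleted PBS group and array 2 of the control PBS group stood apart by pancreatic enzyme transcripts: the summed intensity of the 6 measured pancreatic markers was 17756 and 7945 there, and 1332 to 1590 on the other 10 arrays. Neutrophil markers summed to 262 to 317 and T and B cell markers to 317 to 388, with Cd3g under the floor throughout. Macrophage markers summed to 1230 to 2327 and endothelial markers to 355 to 522.

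The mammalian clock is a transcriptional loop. CLOCK and ARNTL (also called BMAL1) bind E-boxes as a pair and switch on Per, Cry, Dbp, Tef, Bhlhe40 and the nuclear receptors Nr1d1 and Nr1d2; PER and CRY proteins then inhibit the pair. NR1D1 and NR1D2 repress Arntl, Clock and Nfil3 through ROR elements, so these transcripts run in the opposite phase. In mouse liver Dbp, Tef and Per1 transcripts are highest around the end of the light phase, and Arntl, Clock, Nfil3 and, later than the other E-box genes, Cry1 are highest in the late night and early morning. Feeding time and glucocorticoids can also shift or induce some of these genes.

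To show elements of the loop in the members, promoter windows from RefSeq on GRCm38.p6 were read, running from 250 bases before to 50 bases after the start site. Windows were found for 8 of the 10 members, 13 in all, and not for Per2 and Bhlhe40. The capitals mark matches, on either strand, to the E-box CACGTG or to the ROR element TAGGTCA or TAGGTTA; the D-box was searched as TTATGTAA, TTATGCAA or TTACGTAA. The Arntl window shown is that of start site 2, at chr7:113207261-113207560 on the plus strand. The Nfil3 window lies at chr13:52980990-52981289 on the minus strand, the Tef window of start site 2 at chr15:81811164-81811463 on the plus strand, and the Dbp window at chr7:45704997-45705296 on the plus strand.
Arntl: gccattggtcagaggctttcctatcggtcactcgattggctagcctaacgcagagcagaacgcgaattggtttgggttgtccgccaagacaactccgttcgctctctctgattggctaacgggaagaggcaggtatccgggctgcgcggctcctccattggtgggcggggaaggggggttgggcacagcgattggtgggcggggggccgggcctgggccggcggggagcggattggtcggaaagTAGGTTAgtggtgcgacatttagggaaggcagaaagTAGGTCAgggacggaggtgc
Nfil3: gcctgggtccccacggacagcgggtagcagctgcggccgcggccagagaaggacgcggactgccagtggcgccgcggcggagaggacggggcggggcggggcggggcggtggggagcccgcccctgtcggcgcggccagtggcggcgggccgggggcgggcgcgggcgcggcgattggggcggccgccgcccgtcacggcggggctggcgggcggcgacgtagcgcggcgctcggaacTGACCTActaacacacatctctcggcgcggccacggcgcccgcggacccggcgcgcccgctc
Tef: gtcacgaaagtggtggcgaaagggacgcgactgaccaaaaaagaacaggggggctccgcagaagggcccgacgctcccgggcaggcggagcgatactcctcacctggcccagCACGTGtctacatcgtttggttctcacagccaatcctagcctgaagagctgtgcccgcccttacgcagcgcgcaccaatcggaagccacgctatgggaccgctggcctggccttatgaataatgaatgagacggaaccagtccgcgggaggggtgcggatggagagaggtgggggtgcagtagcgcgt
Dbp: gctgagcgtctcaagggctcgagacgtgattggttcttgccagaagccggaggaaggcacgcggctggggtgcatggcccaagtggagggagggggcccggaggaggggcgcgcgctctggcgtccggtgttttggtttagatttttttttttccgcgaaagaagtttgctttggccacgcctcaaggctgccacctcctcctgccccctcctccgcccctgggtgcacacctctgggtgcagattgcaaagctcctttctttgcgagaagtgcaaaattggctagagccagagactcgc

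Arntl and Nfil3, both low where Dbp is high in a normal cycle, were the 2 members with a ROR element in the window, Arntl with 2 of them. Nfil3 carries its element on the other strand, so its capitals read as the reverse complement. Of all 32851 promoter windows of the same length in the table, 4.0% held a ROR element. An E-box lay in both windows of Tef, in 1 of the 2 windows of Per1 and in the 1 window of Cry1, against 7.15% of all windows. Per1 also held the only D-box of the members, against 1.78% of all windows. Dbp, Clock and Cry2 had none of these letters in their windows. The percentages are shares of windows, while the members were counted by gene over their 13 windows, so the 2 measures are unlike. These matches describe the sequence and were not measured as binding sites.

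Dbp, a PAR-bZIP activator that the clock drives directly, varied most of the members. It read 52.3 and 32.5 on arrays 1 and 2 of Ifng-null livers given interferon-gamma, against 105 and 58.7 in Ifng-null livers given PBS. It read 109 and 36.4 in Socs3-deleted livers given IL-6, against 74.8 and 34.2 in Socs3-deleted livers given PBS. In control livers it read 107 and 107 after IL-6, against 197 and 32.7 after PBS. The 2 control PBS arrays thus nearly spanned the whole series, and array 1 exceeded array 2 in all 6 groups, though in the control IL-6 group only in the decimals. Array 2 of both the interferon-gamma group and the control PBS group lay under the floor of 33.0, so those 2 values have no order between them.

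Tef, a second PAR-bZIP activator of the same family, varied over a narrower range. It read 393 and 347 on arrays 1 and 2 of Ifng-null livers given interferon-gamma and 579 and 458 in those given PBS. It read 464 and 414 in Socs3-deleted livers given IL-6 and 500 and 343 in those given PBS, and 568 and 534 in control livers given IL-6 and 643 and 411 in those given PBS. Array 1 was again the higher in all 6 groups, and both interferon-gamma arrays lay under both Ifng-null PBS arrays.

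Per1, a repressor of the loop that also responds to glucocorticoids, read 149 and 152 after interferon-gamma and 160 and 110 after PBS in Ifng-null livers. It read 219 and 148 after IL-6 and 213 and 139 after PBS in Socs3-deleted livers, and 183 and 125 after IL-6 and 192 and 137 after PBS in control livers. Array 1 was the higher in 5 of 6 groups. Outside the interferon-gamma group, arrays numbered 1 lay between 160 and 219 and those numbered 2 between 110 and 148.

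Cry2, a further repressor, was the flattest of these genes at 86.7 to 146 but was also higher on array 1 in all 6 groups. Bhlhe40 (also known as Dec1), an E-box repressor that answers to many stimuli besides the clock, read 106 and 108 after interferon-gamma, against 255 and 150 after PBS, in Ifng-null livers. In Socs3-deleted livers it read 437 and 374 after IL-6, against 270 and 184 after PBS, and in control livers 280 and 150 after IL-6, against 368 and 135 after PBS. It had the 2 highest values of the series in the Socs3-deleted IL-6 group and the 2 lowest in the interferon-gamma group, and array 1 was the higher in 5 of 6 groups.

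Arntl, the activator whose transcript cycles against Dbp, went the other way. It read 66.0 and 92.4 on arrays 1 and 2 of Ifng-null livers given interferon-gamma, against 42.7 and 63.3 in those given PBS. Socs3-deleted livers read 50.3 and 56.2 after IL-6, against 53.1 and 141 after PBS, and control livers 50.7 and 48.1 after IL-6, against 39.5 and 90.5 after PBS. Array 2 was the higher in 5 of 6 groups, and the 3 highest arrays, array 2 of the Socs3-deleted PBS, interferon-gamma and control PBS groups, were the 3 lowest for Dbp. The pancreatic marker sum was high on the Socs3-deleted PBS and control PBS arrays, and 1481 on the interferon-gamma array, within the range of the other arrays.

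Clock, the partner of ARNTL, was the higher on array 2 in all 6 groups. It read 41.9 and 56.8 after interferon-gamma and 51.1 and 61.7 after PBS in Ifng-null livers, 28.1 and 39.7 after IL-6 and 48.4 and 71.7 after PBS in Socs3-deleted livers, and 41.0 and 47.9 after IL-6 and 47.4 and 70.7 after PBS in control livers. Both Socs3-deleted IL-6 arrays lay under every other array, and 1 of them lay under the floor.

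Nfil3 (also known as E4BP4), which competes with DBP and TEF at D-boxes as a repressor, was read by 2 probe sets that disagreed. With 101805_f_at it was flat, at 118 to 161 over the 12 arrays. With 102955_at it read 60.8 and 188 after interferon-gamma and 84.0 and 91.0 after PBS in Ifng-null livers, 82.0 and 122 after IL-6 and 97.5 and 189 after PBS in Socs3-deleted livers, and 65.4 and 65.0 after IL-6 and 67.6 and 88.4 after PBS in control livers. Array 2 was the higher in 5 of 6 groups by 102955_at and in 4 of 6 by 101805_f_at. The suffix f marks probe sets that may match several related transcripts, so the identity of 101805_f_at, and of the Cry1 probe set 94420_f_at, is uncertain.

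Cry1, a repressor whose transcript peaks late, was highest on array 2 of the control PBS group at 147 and lay between 65.6 and 115 on the other 11 arrays. It showed no common direction, with array 1 higher in 3 groups and lower in 3.

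**Figure D1:**
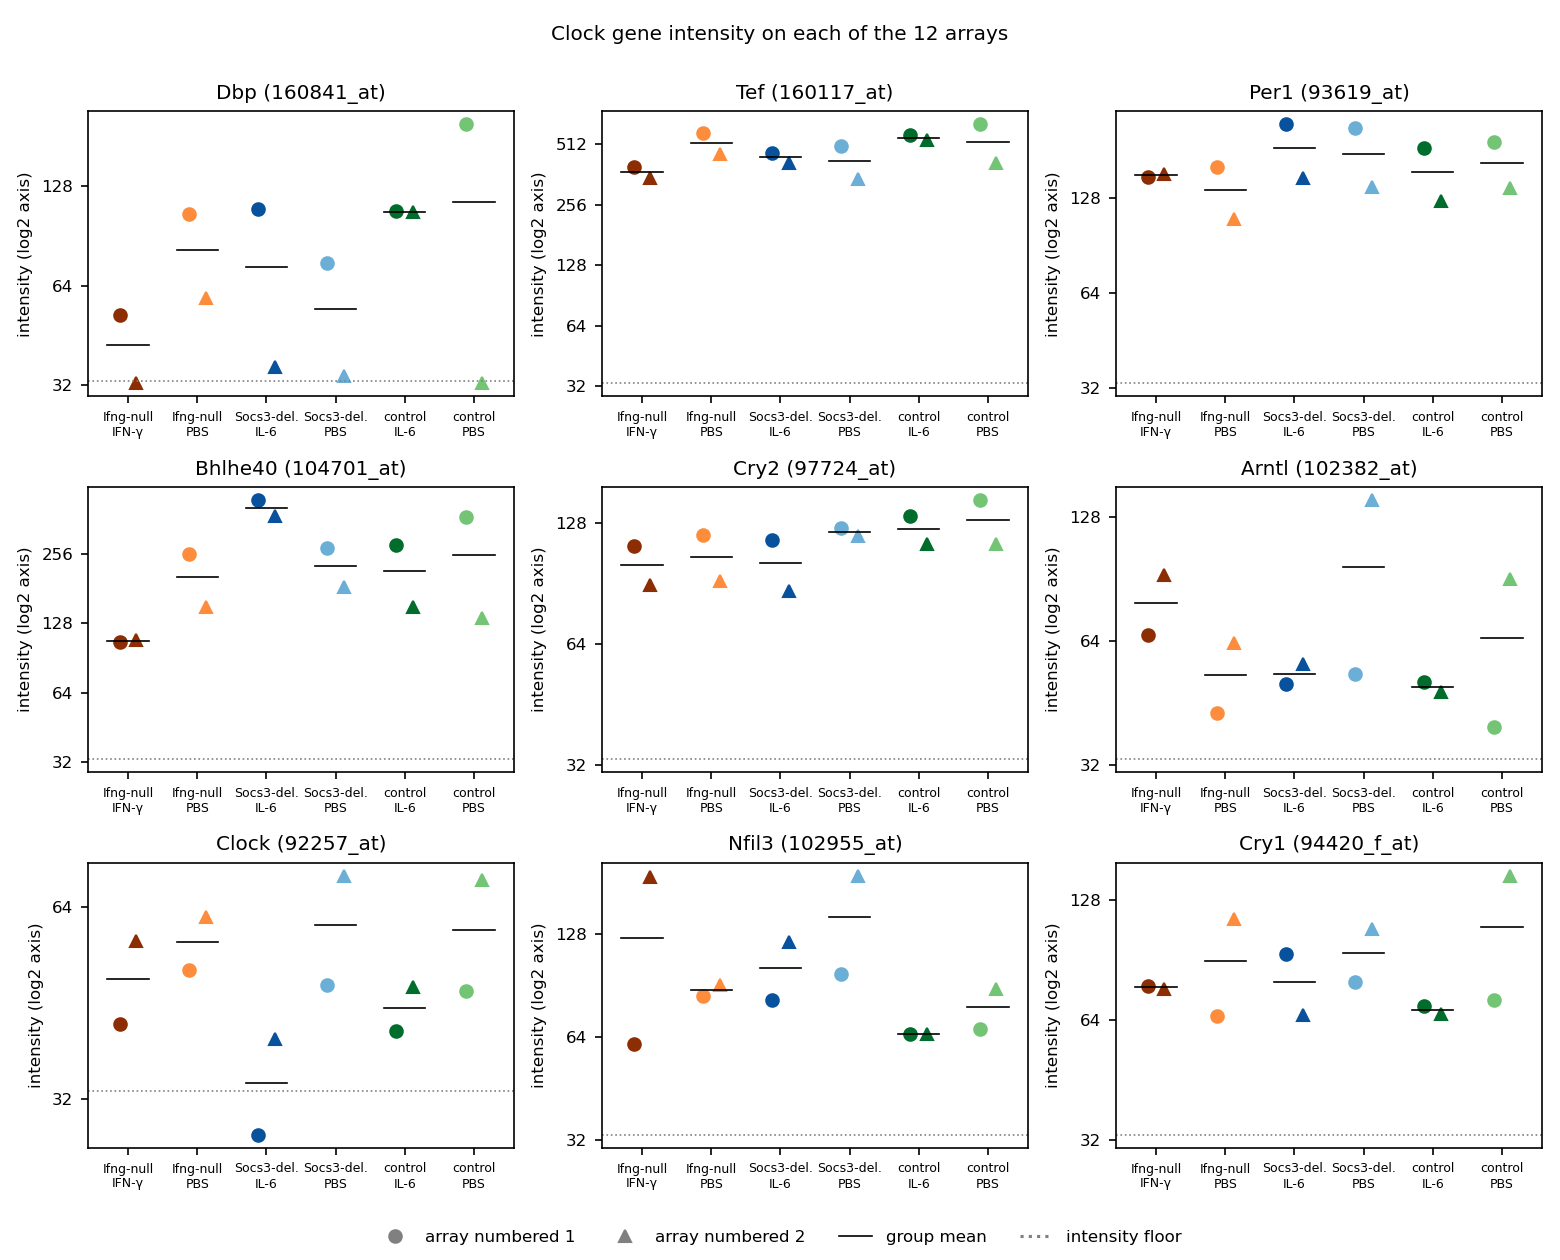
Intensity (log2 axis) of the 9 tested clock genes on each array, with circles for arrays numbered 1, triangles for arrays numbered 2, a bar for the mean of each group of 2 and a dotted line for the floor of 33.0 where it falls within the axis; Nfil3 is shown by 102955_at. Circles lie above triangles in all 6 groups for Dbp, Tef and Cry2 and under them in all 6 for Clock.

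The arrays of 1 group thus differed for most clock genes more than arrays of 1 group usually did. The SD within groups, from the limma fit of the 6 group means, was 0.98 on the log2 scale for Dbp, which put it at percentile 99.7 of all tested probe sets. It was 0.58 for Arntl (percentile 98.7), 0.58 for Nfil3 by 102955_at (98.8) and 0.57 for Bhlhe40 (98.7). It was 0.43 for Cry1 (97.4), 0.36 for Per1 (95.6) and 0.29 for Clock (91.4). Tef had 0.27 (percentile 89.0) and Cry2 0.23 (percentile 80.8), while the flat Nfil3 probe set had 0.08 (percentile 9.5). With 1 probe set a gene, the one with the highest mean, 6 of the 9 tested member genes (66.7%) fell in the top 10% of spread, and their median SD was 0.36, against 0.15 for all 6976 genes tested.

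Part of this spread lay in the 2 groups that held an array with high pancreatic signal. Without those 2 arrays each of these groups keeps 1 array and adds nothing to the SD. A fall in the SD therefore cannot be assigned to the array left out rather than to its partner. In that fit 4 of the 9 genes stayed in the top 10%. Dbp had an SD of 0.68 (percentile 99.4) and Bhlhe40 0.43 (percentile 97.3), while Arntl came to 0.27 (percentile 87.4) and Tef to 0.15 (percentile 53.2). Of 11 other clock genes 2 (18.2%) fell in the top 10%, and of 12 rhythmic liver output genes 9 (75%) did, on all 12 arrays. Among 18 genes that answer to glucocorticoids or fasting 11 (61.1%) did so too, so a wide spread was shared with genes outside the loop.

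**Figure D2:**
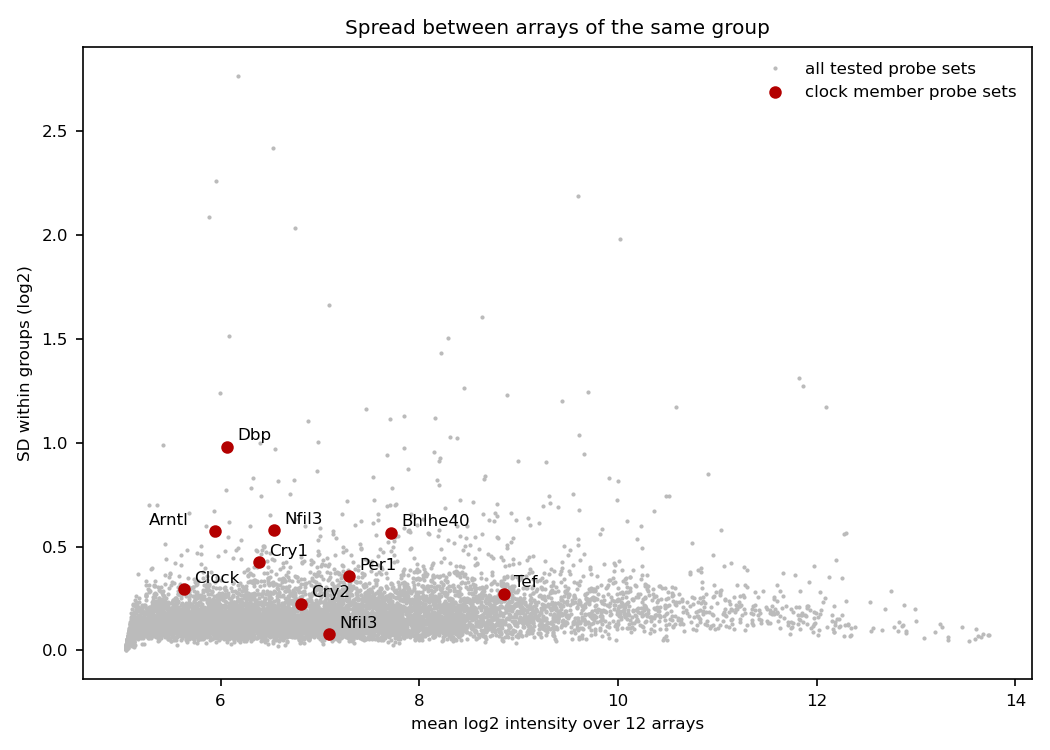
SD within groups on the log2 scale against mean log2 intensity over the 12 arrays, for all 9641 tested probe sets (grey) and the 10 clock member probe sets (red). Dbp stands highest of the members at 0.98 and the flat Nfil3 probe set lowest at 0.08.

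The direction of the difference between arrays was shared across all groups for some of the clock genes. Of the 10 member probe sets 4 (40%) differed in the same direction in all 6 groups, those of Dbp, Tef and Cry2 with array 1 higher and that of Clock with array 1 lower. Among all 9641 tested probe sets 584 (6.06%) kept 1 direction, 425 with array 1 higher. The 6 groups may not count separately here. Over all tested probe sets the array differences of the 2 Ifng-null groups correlated at 0.66. With the array number as a term in the fit, the number was called for 0 of 9641 probe sets (smallest limma adjusted p of a member 0.26). On average over the 6 groups the log2 difference of array 1 minus array 2 was 1.13 for Dbp, 0.65 for Bhlhe40, 0.46 for Per1, 0.33 for Tef and 0.30 for Cry2. It was -0.62 for Arntl, -0.61 for Nfil3 by 102955_at, -0.39 for Clock and -0.28 for Cry1. For Nfil3 by the flat probe set 101805_f_at it was -0.06, with array 1 higher in 2 groups and lower in 4. The groups were unequal in it: for Dbp the log2 difference was 2.58 in the control PBS group and 0.01 in the control IL-6 group.

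The nuclear receptors of the loop had the same order of arrays as Dbp in most groups. Nr1d2 read 155 and 56.1 on arrays 1 and 2 of the Socs3-deleted PBS group and 228 and 58.1 in the control PBS group, and was higher on array 1 in 5 of 6 groups. Nr1d1 was higher on array 1 in all 6 groups, between 311 and 428 on arrays numbered 1 and between 244 and 340 on those numbered 2. Usp2, a clock-driven deubiquitinase, was higher on array 1 in all 6 groups by both of its probe sets. The rest of the tested other clock genes, by the probe set with the highest mean, had mixed directions. Array 1 was higher in 4 of 6 groups for Per3, Timeless and Csnk1d and in 3 for Npas2 and Btrc. It was higher in 2 for Csnk1e and Fbxw11 and in 1 for Rora. Further probe sets of Csnk1d (97264_r_at, higher on array 1) and Btrc (160790_s_at, lower) kept 1 direction in all 6 groups.

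**Figure D3:**
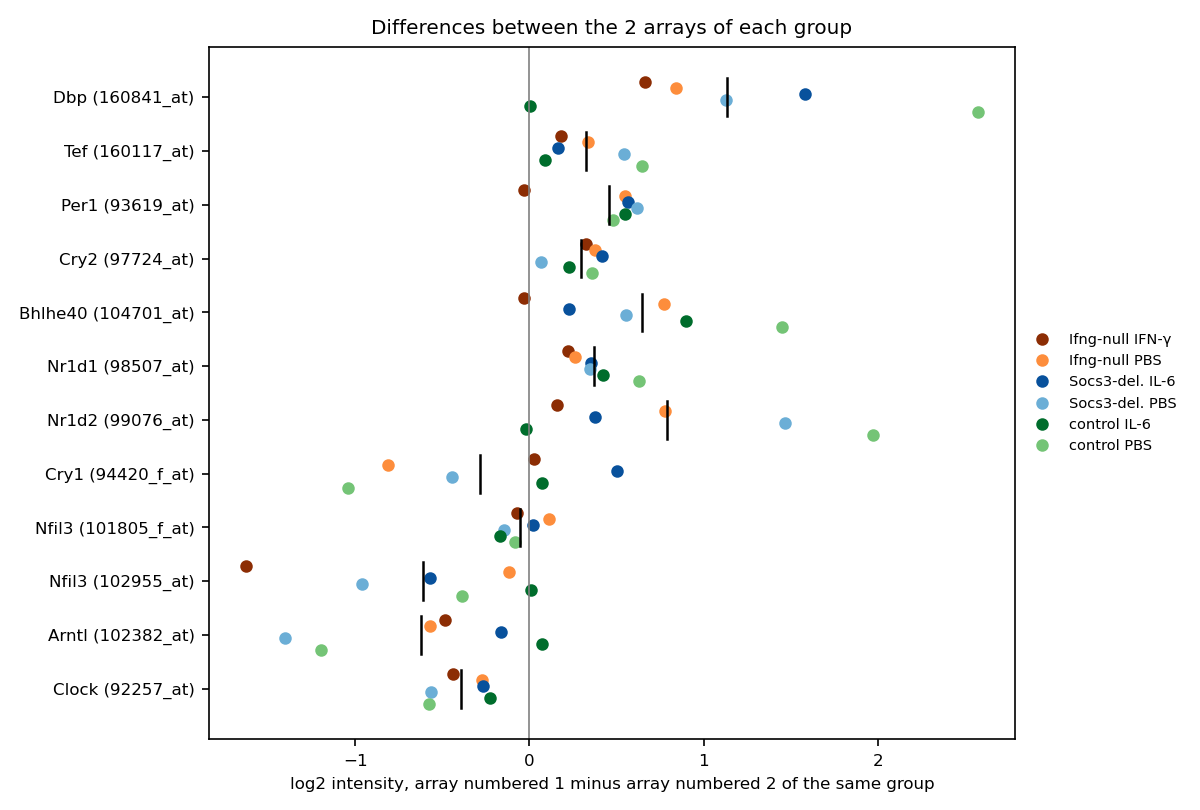
Log2 intensity of array 1 minus array 2 of the same group for the 10 tested member probe sets and for Nr1d1 and Nr1d2; each dot is 1 of the 6 groups and the black bar their mean. Dbp, Tef and Cry2 lie right of 0 in all 6 groups, and Clock lies left of 0 in all 6.

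Dbp and Arntl ran against each other over the 12 arrays. Pearson's r of their log2 levels was -0.84 (two-sided permutation p = 0.0003, 0.00045 after Benjamini-Hochberg adjustment over 3 relations) and Spearman's rho was -0.89 (permutation p = 0.00034, adjusted 0.00102). All permutation p-values here and in the next paragraph treat the arrays as independent. The arrays share groups and array numbers and may not be separate mice, so these p-values may be too small. The arrays farthest from the median of Dbp were array 1 of the control PBS group and, tied at the floor, array 2 of the control PBS and interferon-gamma groups. Without both control PBS arrays r was -0.80 (permutation p = 0.0009), and without array 1 of the control PBS group and array 2 of the interferon-gamma group it was -0.79 (permutation p = 0.00098). The array with more Dbp had less Arntl in 5 of 6 groups, the exception being the control IL-6 group, where both genes were nearly equal. Within the 6 arrays numbered 1 r was -0.92 (exact permutation p = 0.0208), and within the 6 numbered 2 it was -0.71 (exact permutation p = 0.103), which did not pass. Leaving out the 2 arrays with high pancreatic signal gave -0.86 (permutation p = 0.00098). A floor at the 50th percentile of all values put Arntl at the floor on 9 of 12 arrays and left r at -0.26 (permutation p = 0.264).

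Dbp and Tef ran together, with r of 0.92 (permutation p = 9e-05, adjusted 0.00027), rho of 0.85 (permutation p = 0.00085, adjusted 0.00127) and the same direction in all 6 groups; r was 0.91 (permutation p = 0.0007) without the 2 control PBS arrays and 0.86 (permutation p = 0.00205) with the other choice of arrays. Within arrays numbered 1 r was 0.86 (exact permutation p = 0.0333), and within those numbered 2 it was 0.89 (exact permutation p = 0.0111). Arntl and Nfil3 by 101805_f_at gave r of 0.67 (permutation p = 0.0179, adjusted 0.0179) and rho of 0.64 (permutation p = 0.0298, adjusted 0.0298), but 0.22 (permutation p = 0.532) without array 2 of the interferon-gamma and Socs3-deleted PBS groups, so that relation rests on those 2 arrays, and more on the second. Without the interferon-gamma array alone r was 0.65 (permutation p = 0.0401), without the Socs3-deleted PBS array alone it was 0.40 (permutation p = 0.223), and without both arrays of high pancreatic signal it was 0.33 (permutation p = 0.348). Within arrays numbered 1 its r was 0.24 (exact permutation p = 0.646), and within those numbered 2 it was 0.85 (exact permutation p = 0.0278). The other Nfil3 probe set, 102955_at, gave r of 0.73 with Arntl over the 12 arrays (permutation p = 0.00808).

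Among all tested probe sets, the 5 genes whose log2 levels were most like that of Dbp over the 12 arrays were Nr1d2 (Pearson's r 0.93), Tef (0.92), Tor1b (0.91), Aldh2 (0.88) and Klhl21 (0.88). The 5 most opposed were Avpr1a (-0.88), Pnrc1 (-0.87), Arntl (-0.84), Sarnp (-0.82) and Dxo (-0.78). For Arntl the most opposed were Tef (-0.88), Nr1d2 (-0.88), Hsf4 (-0.87), Tor1b (-0.84) and Six3 (-0.84). Its closest were Col5a2 (0.85), the pancreatic elastase gene Cela1 (0.84), 1700017B05Rik (0.84), the kallikrein gene Klk1b1 (0.83) and Med1 (0.82). Cela1 was itself high on the 2 arrays with pancreatic signal, at 5931 and 2695, against 454 to 873 on the other 10. The 12 points share their groups of 2 and their array numbers, and these values are a description with no test.

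As a summary of each array, the mean centred log2 level of Dbp, Tef and Per1 less that of Arntl, Clock, Nfil3 (by 101805_f_at) and Cry1 was taken, with no test. On arrays 1 and 2 it was -0.17 and -0.68 for Ifng-null livers given interferon-gamma, against 0.55 and -0.41 for those given PBS. It was 0.58 and -0.17 for Socs3-deleted livers given IL-6, against 0.29 and -1.11 for those given PBS, and 0.66 and 0.38 for control livers given IL-6, against 1.02 and -0.94 for those given PBS. Array 1 was the higher in all 6 groups, 5 of the 6 arrays numbered 1 lay above 0, and 5 of the 6 numbered 2 lay under it. The spread within the control PBS group, from 1.02 on array 1 to -0.94 on array 2, covered most of the range of the series. With Nfil3 read by 102955_at the summary was -0.01 and -0.91 on arrays 1 and 2 of the interferon-gamma group, 0.62 and -0.27 in the Socs3-deleted IL-6 group and 0.30 and -1.31 in the Socs3-deleted PBS group. No array changed sign with that probe set, and array 1 was again the higher in all 6 groups.

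**Figure D4:**
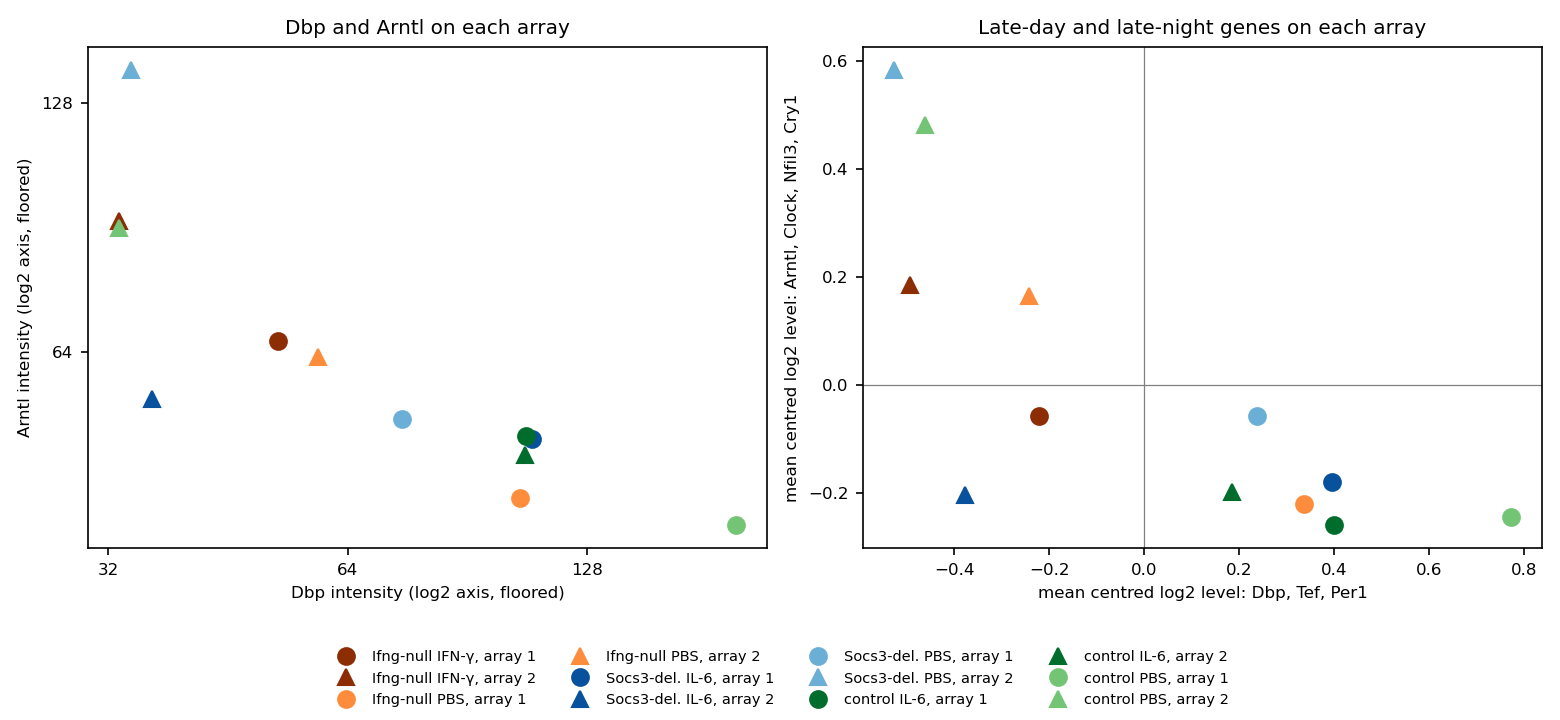
Left, Arntl against Dbp intensity (log2 axes, values under the floor of 33.0 drawn at it) on each array; right, the mean centred log2 level of Arntl, Clock, Nfil3 (101805_f_at) and Cry1 against that of Dbp, Tef and Per1. Circles are arrays numbered 1 and triangles arrays numbered 2; array 1 of the control PBS group lies at the Dbp-high, Arntl-low end and array 2 of the Socs3-deleted PBS group at the Arntl-high end.

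The labels give the interval from injection to death and no clock time. Sampling time of day, feeding and the day of killing were therefore not tested as sources of these differences, and a shared schedule behind the array numbers cannot be told apart from any other step that followed them. The summed intensity of 3 erythroid markers was also higher on array 2 in all 6 groups. It was 677 to 2410 on arrays numbered 1 and 1294 to 7088 on those numbered 2. The haemoglobin gene Hba-a1 alone ran from 294 to 1688 on arrays numbered 1 and from 317 to 6389 on those numbered 2. It carried most of the difference except in the Ifng-null PBS group, where it read 325 and 317. Alas2 was lower on array 2 in the Socs3-deleted PBS (672 and 560), control IL-6 (671 and 591) and control PBS (784 and 640) groups, and higher in the others. Slc4a1 lay between 46.4 and 59.4 on all arrays, with no common direction. The part of erythroid transcripts in the clock differences was not tested. Array 2 of the control IL-6 group had an erythroid sum of 4293, with Dbp at 107 and Arntl at 48.1. Its partner array had an erythroid sum of 1087, with Dbp at 107 and Arntl at 50.7. In each other group array 2, with the higher erythroid sum, had less Dbp and more Arntl than array 1.

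Comparisons between the 6 groups were read against this spread. In the limma fit of the group means none of the 10 member probe sets passed an adjusted p of 0.05 in any comparison, nor did any pass the limma F-test for a difference among the 6 groups. With 2 arrays against 2, an exact permutation test of a single gene cannot go below p = 0.333.

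Interferon-gamma in Ifng-null livers changed 0 of 10 member probe sets, with 0.653% of all probe sets called in that comparison. Tef had the smallest p among them: it stood at -0.48 ± 0.23 on the log2 scale (SE, n = 2 against 2), with an adjusted p of 0.783 in limma. Dbp was at -0.92, with a 95% interval from -2.69 to 0.86, and Bhlhe40 at -0.87 ± 0.46 (limma adjusted p = 0.815). Arntl was at 0.59, with an interval from -0.46 to 1.64. The values of the groups did not overlap for these 4 genes or for the flat Nfil3 probe set, 5 of 10, against 27.2% of all tested probe sets.

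IL-6 in Socs3-deleted livers changed 0 of 10 member probe sets, with 1.17% of all probe sets called. Clock had the smallest p of the members, at a log2 change of -0.70 ± 0.25 (limma unadjusted p = 0.0193, adjusted p = 0.308), and Bhlhe40 stood at 0.86 ± 0.46 (limma adjusted p = 0.599). With the array number added as a term Clock was called (limma adjusted p = 0.0335), but the numbers were not taken as pairs. Groups did not overlap for 4 of 10 probe sets, those of Clock, Bhlhe40, Cry2 and the flat Nfil3, against 41.1% of all. IL-6 in control livers also changed 0 of 10, with 0% called overall; 248 of 9641 probe sets had an unadjusted p under 0.05 there, and no member did. Clock stood at -0.39, with an interval from -0.95 to 0.18, and Cry1 at -0.60, with an interval from -1.39 to 0.19. The difference between the 2 IL-6 responses was past the threshold for 0 of 10 members, with 0.0415% of all probe sets called.

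Between genotypes after IL-6, Socs3-deleted over control, 0 of 10 members passed, with 0.954% of all probe sets called. Bhlhe40 averaged 406 ± 44.9 in Socs3-deleted livers and 215 ± 92.1 in control livers (SD, n = 2 each), 0.98 ± 0.46 (SE) on the log2 scale, with an adjusted p of 0.601 in limma, and Nfil3 by 102955_at was at 0.62, with an interval from -0.45 to 1.68. After PBS 0 of 10 members passed for Socs3-deleted over control and 0 of 10 for Ifng-null over control, with 0% called in each; 402 and 297 of all probe sets had an unadjusted p under 0.05 there, and no member did. Dbp after PBS was at -0.67, from -2.45 to 1.10, in Socs3-deleted over control livers, and at -0.04, from -1.81 to 1.74, in Ifng-null over control livers, intervals that leave room for changes of more than 2-fold either way. The PBS controls enter both of these comparisons.

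The F-test for any difference among the 6 groups called 0 of 10 member probe sets, with 2.01% of all probe sets called. Bhlhe40 was nearest, with an unadjusted p of 0.0465 and an adjusted p of 0.435 in limma.

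**Figure D5:**
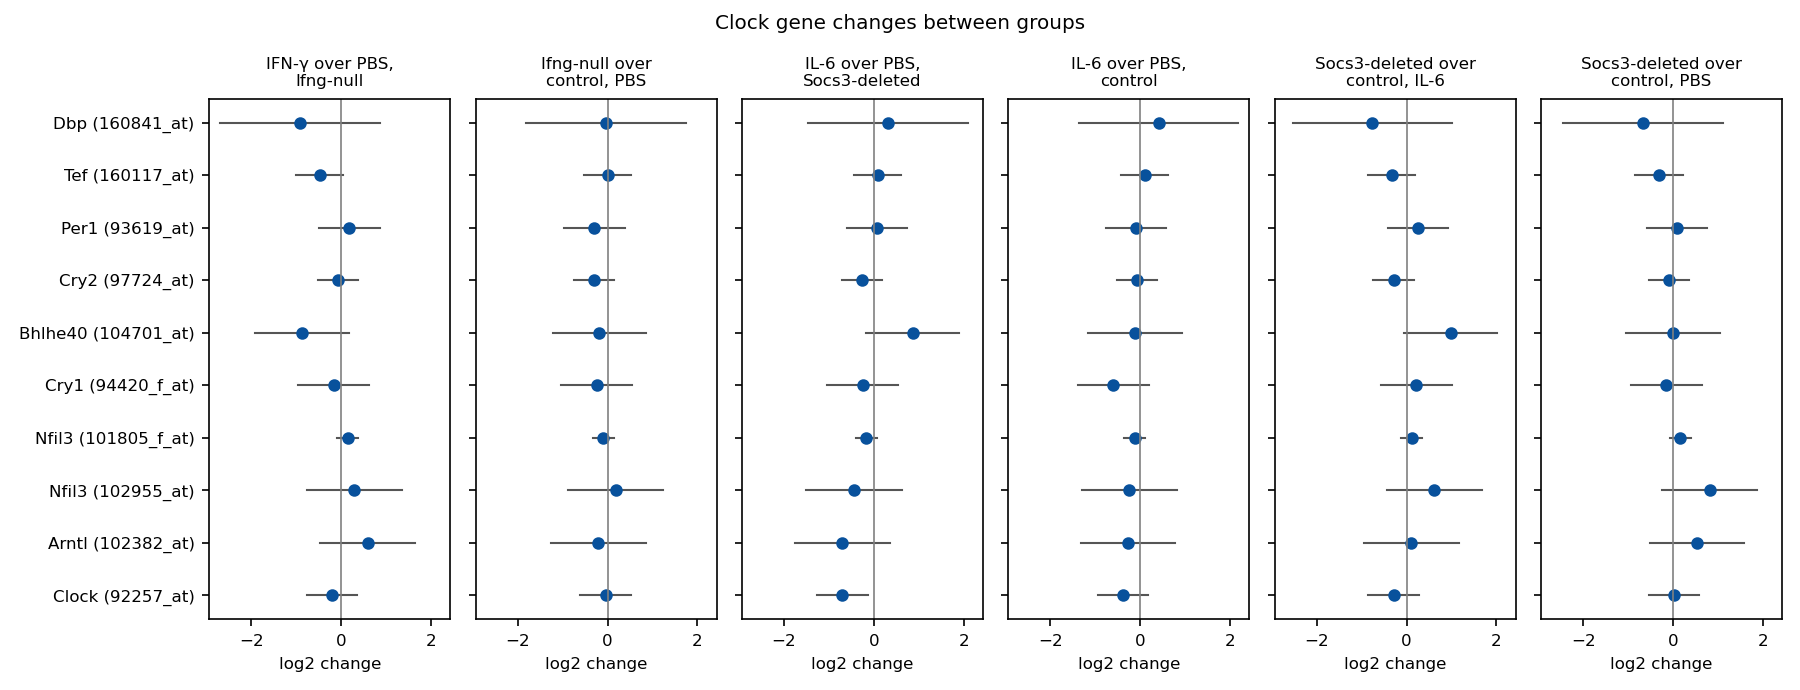
Log2 change of each tested member probe set in 6 comparisons between groups (points) with its 95% interval from the limma fit (lines). The intervals of Dbp are the widest, from -2.69 to 0.86 for interferon-gamma over PBS, and Clock in the IL-6 response of Socs3-deleted livers is the 1 member whose unadjusted interval excludes 0.

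Of 20 other clock genes listed, 11 were on the array, all tested. The only one called was Rora, which encodes an activator at ROR elements. By 101889_s_at it fell after IL-6 in Socs3-deleted livers, to 44.4 and 43.6 against 94.3 and 108 after PBS, -1.20 ± 0.17 (SE) on the log2 scale, with an adjusted p of 0.0113 in limma. It was also lower in Socs3-deleted than in control livers after IL-6, where controls read 82.9 and 87.3 (log2 change -0.95 ± 0.17, limma adjusted p = 0.0392). The 2 Socs3-deleted IL-6 arrays were the lowest of the 12 and nearly equal, and its SD within groups, 0.19, was at percentile 69.6. Its other probe set, 101888_at, stayed near the floor on all arrays, between 29.5 and 34.8. The first call was kept in 17 of 23 alternative settings and the second in 11. The first was lost without array 2 of the Socs3-deleted IL-6 group (limma adjusted p = 0.0708) or array 2 of the Socs3-deleted PBS group (limma adjusted p = 0.0947), at log2 changes of -1.18 and -1.10. The second was lost when any 1 of the 8 Socs3-deleted and control arrays was left out (limma adjusted p from 0.0531 to 0.300). With a floor at the 50th percentile the log2 changes were -0.27 and -0.03, since 44.4 and 43.6 then lie under the floor. Uncalled, the widest spread within groups on this list was that of Nr1d2 (0.75), Usp2 (0.33) and Nr1d1 (0.28).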

How the data were processed

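The deposited table gives 1 signal intensity per probe set for each of 12 liver arrays, unlogged. The steps by which the authors made these intensity values (software, background, scaling) are not given in the sources used, and the values were taken as deposited. Groups and array numbers come from the labels. Of 12488 probe sets 66 control probe sets were dropped, intensities under 33.0 (25th percentile) were set to that floor, log2 was taken, and 9641 probe sets above the floor on at least 2 arrays were tested. The platform annotation gives 1 symbol for 10833 probe sets other than controls and several for 396, from which no gene was named. A floor understates changes of dim genes.

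Group means were fitted over all 12 arrays with limma 3.58.1 in R 4.3.3 (lmFit, eBayes, 6 residual and 3.38 prior degrees of freedom), with Benjamini-Hochberg adjustment over all tested probe sets and a threshold of 0.05. Correlations used scipy 1.17.1 in Python 3.11.15 with 100000 resamples, or exact tests for 6 arrays. The planned relation of Dbp with Per2 was dropped because Per2 was not tested. The fits were tested on simulated data. No counts lie behind the values, so the number of arrays limits the precision.

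Named were all member probe sets. Of lists of other clock genes, rhythmic liver outputs and glucocorticoid and fasting genes, each called gene and the 3 with the largest SD within groups were named. For a gene with several probe sets the one with the highest mean stood for it in counts. Members, lists and markers (hepatocyte, macrophage, pancreatic acinar, erythroid, neutrophil, T and B cell, endothelial) were chosen with earlier results of these data known. The alternatives changed the normalization, floor, filter, variance model, array weights, samples in the fit and replicate block, and left out arrays; the setting with no floor, the one without the 2 arrays of high pancreatic signal and the subsets for the correlations were chosen after seeing the data.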

Additional observations from a re-analysis of the deposited data

Results flagged for a closer look

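Lpin1 (98892_at), a phosphatidate phosphatase of the rhythmic output list, had opposite orders of the Socs3 genotypes after the 2 injections. After IL-6 it read 182 and 65.4 in Socs3-deleted livers, against 418 and 220 in control livers. After PBS it read 494 and 951 in Socs3-deleted livers, against 473 and 281 in control livers. Every Socs3-deleted array was thus lower than every control array after IL-6 and higher than every control array after PBS. After PBS the arrays numbered 1 were nearly equal, at 494 and 473. The values of 951 and 281 came from the 2 arrays with high pancreatic signal. Lpin1 was the only gene found when the tested probe sets of all the gene lists were searched for such opposite orders. The share among all tested probe sets was not computed. The difference between the 2 effects was -2.39 on the log2 scale, with a 95% interval from -4.43 to -0.34, and did not pass in limma (unadjusted p = 0.027, adjusted p = 0.999).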

How the results depend on the processing

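Over 23 alternative settings the 70 log2 changes of clock probe sets were recomputed 1603 times; 96 had the other sign, none of them called. The replicate block, with the array number as a term, called 1 clock probe set for IL-6 in Socs3-deleted livers (Clock, log2 change -0.70, limma adjusted p = 0.0335), and in no other setting was a member called. The numbers were not taken as pairs: deviations of same-numbered arrays correlated above 0.1 in 8 of 15 pairs of groups, from -0.25 to 0.66. In that fit the number itself called 0 of 9641 probe sets in limma; 1016 (10.5%) had an unadjusted p under 0.05, among them 8 of 10 member probe sets. Dbp against Arntl came to r = -0.258 with a floor at the 50th percentile, which puts Arntl at the floor on 9 arrays, and to -0.706 within the 6 arrays numbered 2.

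Counts over all probe sets depended on single arrays and on the other settings. IL-6 in Socs3-deleted livers called 113, from 36 without array 2 of the Socs3-deleted PBS group to 123, and 1 to 160 in other settings. Interferon-gamma called 63, from 20 without array 2 of the Ifng-null PBS group to 62, and 8 to 72. Genotype after IL-6 called 92, from 16 without array 2 of the control IL-6 group to 106, and 0 to 223; the difference of the IL-6 responses called 4, 2 to 18 and 0 to 8, and the F-test 194, 79 to 175 and 35 to 225. IL-6 in controls and genotype after PBS called 0, at most 8 and 7 without an array. The number of arrays, 2 a group, and the floor for Dbp, Clock and Arntl limit what can be read.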

Other observations

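Rhythmic liver output genes also varied widely within groups. Of 20 listed, 13 were on the array and 12 were tested. Nampt, the rate-limiting enzyme of NAD salvage and a target of both the clock and cytokines, rose after IL-6 in Socs3-deleted livers, to 533 and 424 against 129 and 77.0 after PBS (log2 change 2.25 ± 0.42, limma adjusted p = 0.0376, called in 13 of 23 alternative settings and lost without any 1 of the 4 Socs3-deleted arrays, either Ifng-null PBS array or array 1 of the interferon-gamma group, with limma adjusted p from 0.0512 to 0.256). It was the 1 gene of this list called in any comparison. Rgs16, a regulator of G protein signalling that follows fasting and feeding in liver, had the largest SD within groups at 1.02 and was higher on array 1 in all 6 groups; in Ifng-null livers given PBS it read 871 and 129. Alas1, the first enzyme of haem synthesis, read 3177 and 462 on arrays 1 and 2 of the Socs3-deleted IL-6 group and 1322 to 3117 on the other 10 arrays.

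Among 20 genes that answer to glucocorticoids or fasting, 19 were on the array and 18 were tested. Sgk1, a glucocorticoid-induced kinase, was higher in Socs3-deleted than in control livers after IL-6, at 180 and 228 against 72.9 and 81.1 (log2 change 1.40 ± 0.22, limma adjusted p = 0.025, called in 17 of 23 settings; limma adjusted p 0.0546 to 0.173 without array 2 of the Socs3-deleted IL-6 group, either control IL-6 array or array 1 of the control PBS group). After PBS Sgk1 also read higher in Socs3-deleted than in control livers, at 210.61 and 137.4 against 93.05 and 87.78, with no overlap. That log2 change was 0.91 ± 0.22 and was not called (limma adjusted p = 0.547). The difference between the 2 IL-6 responses was 0.48 for Sgk1 (limma unadjusted p = 0.161, adjusted p = 0.999). Klf9, a zinc-finger factor induced by glucocorticoids, fell after IL-6 in Socs3-deleted livers by 93528_s_at, to 278 and 294 against 403 and 479 after PBS. The log2 change was -0.62 ± 0.12 (limma adjusted p = 0.0421, called in 7 of 23 settings). The call was lost without any 1 of the 12 arrays, at log2 changes from -0.74 to -0.49. By 93527_at Klf9 read 101 and 158 against 163 and 172 (log2 change -0.40, limma adjusted p = 0.561). Control livers also read lower by 93528_s_at after IL-6 than after PBS, at 274 and 306 against 422 and 378 (log2 change -0.46, limma adjusted p = 0.859). Pck1, the gluconeogenic enzyme, had the largest SD within groups on this list at 1.04. It read 929 and 93.5 on arrays 1 and 2 of the Socs3-deleted IL-6 group and 656 to 1361 on the other 10 arrays. Zbtb16 and Igfbp1 came next in spread.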
